A study of Mus musculus with 12 samples.

Results

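Promoter peaks gained by 72 h were sites near protein-coding gene starts that had an ATAC-seq peak in reprogramming cells and none in fibroblasts. They were selected on the peak calls themselves. A member was a peak of control reprogramming cells with a -log10 q-value of 5 or more and a midpoint within 1000 bp of a protein-coding transcription start site (TSS) of GENCODE M21, overlapping a peak of Zfp266 KO reprogramming cells and no peak of either fibroblast list by 1 bp. The rule found 835 peaks of 170135 in the control reprogramming list. They were 5.59% of the 14938 promoter peaks that passed the same q-value, of which 13938 had a peak in all 4 lists.

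Omni-ATAC-seq, which marks open chromatin by the insertion of a transposase, was run on 12 libraries of 50000 cells. The cells were P2 mouse embryonic fibroblasts (MEFs) of the 129 strain from E12.5 embryos, and all groups carried Cas9, the TNG Nanog-GFP reporter and a doxycycline-inducible MKOS cassette (MYC, KLF4, OCT4 and SOX2). Each group had 3 libraries: MEFs with a control sgRNA (MEF control), MEFs with a Zfp266 sgRNA (MEF KO), and the same guides after reprogramming (Rep control and Rep KO). For reprogramming the cassette was induced for 72 h with doxycycline (300 ng/ml) in embryonic stem cell medium with LIF and vitamin C (10 µg/ml). MEF groups stayed in fibroblast medium with FGF2 and heparin, and every group was harvested 96 h after transduction. The paper plated its reprogramming cells among an excess of wild-type MEFs and sorted those positive for mOrange, the marker of the cassette. Effects of medium, culture and cassette on the gained peaks therefore cannot be told apart. The reprogramming cells were sorted populations, so fewer cells with an open site and a weaker opening in each cell cannot be told apart. The targeted gene had a promoter peak in every list, with a fold enrichment of 5.46 in MEF control, 5.08 in MEF KO, 5.03 in Rep control and 4.52 in Rep KO, and a promoter peak does not show whether the coding sequence was edited. The sources used here tie no library to its own embryo or culture, so p-values measure the spread between these libraries.

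Most mammalian promoters lie in CpG islands, stretches rich in CpG that tend to stay open in many cell types whether or not the gene is transcribed. Promoters poor in CpG belong more often to genes used in 1 or a few tissues. During reprogramming OCT4, SOX2 and KLF4 bind many sites in closed chromatin, while genes of the pluripotent state, the germline and epithelia are switched on at different times.

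The sequences below are the 300 bases centred on the midpoint of 7 members, read from GRCm38.p6 on the plus strand. They are shown because each holds a match to a short string known for the family of a cassette factor. Capitals mark GGGTGTGG or GGGCGTGG for KLF, ATTTGCAT for OCT, and for SOX either CATTGTT or the variant that reads CTTTGTT, on either strand.

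4931408C20Rik (chr1:26687571-26687870): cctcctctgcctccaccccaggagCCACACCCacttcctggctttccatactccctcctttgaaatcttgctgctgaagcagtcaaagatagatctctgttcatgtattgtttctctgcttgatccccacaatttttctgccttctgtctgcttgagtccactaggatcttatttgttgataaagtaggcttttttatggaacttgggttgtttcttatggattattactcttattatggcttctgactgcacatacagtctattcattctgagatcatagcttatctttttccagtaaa
Macf1 (chr4:123499986-123500285): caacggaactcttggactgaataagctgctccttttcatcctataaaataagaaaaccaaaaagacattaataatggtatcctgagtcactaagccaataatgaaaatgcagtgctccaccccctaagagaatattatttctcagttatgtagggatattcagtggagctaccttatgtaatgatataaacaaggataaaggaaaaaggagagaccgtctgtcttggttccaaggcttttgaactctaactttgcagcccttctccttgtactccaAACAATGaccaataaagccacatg
Erg (chr16:95529605-95529904): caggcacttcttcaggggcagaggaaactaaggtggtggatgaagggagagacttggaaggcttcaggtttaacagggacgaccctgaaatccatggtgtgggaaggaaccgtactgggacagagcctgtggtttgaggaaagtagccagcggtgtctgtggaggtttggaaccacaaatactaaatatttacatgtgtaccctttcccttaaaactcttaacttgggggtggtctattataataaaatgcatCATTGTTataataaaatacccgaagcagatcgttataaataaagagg
Klf17 (chr4:117765450-117765749): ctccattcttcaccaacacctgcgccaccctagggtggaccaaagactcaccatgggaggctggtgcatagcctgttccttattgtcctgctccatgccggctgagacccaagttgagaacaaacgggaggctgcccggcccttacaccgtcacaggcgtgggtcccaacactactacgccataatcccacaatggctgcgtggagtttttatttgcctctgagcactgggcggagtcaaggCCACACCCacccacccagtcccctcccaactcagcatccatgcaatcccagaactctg
Krt14 (chr11:100207450-100207749): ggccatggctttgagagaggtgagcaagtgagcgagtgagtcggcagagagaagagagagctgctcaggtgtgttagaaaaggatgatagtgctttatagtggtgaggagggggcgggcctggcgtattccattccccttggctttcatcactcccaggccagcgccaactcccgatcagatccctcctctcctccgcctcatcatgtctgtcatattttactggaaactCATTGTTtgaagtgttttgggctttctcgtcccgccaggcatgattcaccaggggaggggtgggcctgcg
Fgfr1 (chr8:25513326-25513625): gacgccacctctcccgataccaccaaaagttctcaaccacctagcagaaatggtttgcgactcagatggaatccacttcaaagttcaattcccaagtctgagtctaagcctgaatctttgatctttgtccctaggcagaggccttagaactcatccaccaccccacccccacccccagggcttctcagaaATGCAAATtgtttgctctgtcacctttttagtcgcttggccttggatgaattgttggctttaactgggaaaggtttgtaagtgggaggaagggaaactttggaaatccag
Sycp2 (chr2:178407517-178407816): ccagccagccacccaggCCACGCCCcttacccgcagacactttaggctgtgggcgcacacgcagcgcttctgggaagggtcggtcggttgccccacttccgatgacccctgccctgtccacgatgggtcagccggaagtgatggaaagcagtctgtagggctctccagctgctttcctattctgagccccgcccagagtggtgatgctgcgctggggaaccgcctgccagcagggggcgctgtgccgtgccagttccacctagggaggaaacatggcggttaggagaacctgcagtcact

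The next 3 windows are of members that differ in CpG content, with each CpG in capitals. They do not reach the ends of the range among members. Rec8 was 1 of the 20 CpG-rich members, Tex19.1 was just under that limit, and Krt13 was CpG-poor.

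Rec8 (chr14:55618144-55618443): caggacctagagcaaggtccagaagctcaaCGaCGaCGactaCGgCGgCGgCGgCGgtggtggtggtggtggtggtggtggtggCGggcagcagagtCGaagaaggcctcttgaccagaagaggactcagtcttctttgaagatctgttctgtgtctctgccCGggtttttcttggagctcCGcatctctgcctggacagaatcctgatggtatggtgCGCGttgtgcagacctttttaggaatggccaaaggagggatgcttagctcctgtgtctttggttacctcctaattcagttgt
Tex19.1 (chr11:121145897-121146196): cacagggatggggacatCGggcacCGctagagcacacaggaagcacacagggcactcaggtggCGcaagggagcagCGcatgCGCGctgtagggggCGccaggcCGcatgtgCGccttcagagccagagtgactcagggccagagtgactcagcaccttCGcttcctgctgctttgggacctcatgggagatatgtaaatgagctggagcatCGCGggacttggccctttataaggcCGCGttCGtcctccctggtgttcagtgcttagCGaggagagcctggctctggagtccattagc
Krt13 (chr11:100121566-100121865): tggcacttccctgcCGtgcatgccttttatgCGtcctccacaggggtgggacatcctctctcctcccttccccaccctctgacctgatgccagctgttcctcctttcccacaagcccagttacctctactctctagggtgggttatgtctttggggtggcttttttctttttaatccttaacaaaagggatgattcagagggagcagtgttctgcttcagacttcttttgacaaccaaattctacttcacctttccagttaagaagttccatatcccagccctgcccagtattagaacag

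The gained promoter peaks were mostly poor in CpG, unlike the promoters that were open throughout. CpG observed over expected had a median of 0.182 in the 300 bases at their midpoints, against 0.723 in promoter peaks of all 4 lists, 0.571 at all protein-coding start sites and 0.138 in the 57369 gained peaks away from promoters. A window counted as CpG-rich at 0.6 or more with at least 50% GC. By that definition 20 of 835 members were CpG-rich, 2.4% (95% Wilson interval 1.56 to 3.67%), against 62% of promoter peaks in all 4 lists (61.2 to 62.8%) and 0.173% of gained peaks away from promoters. The CpG-rich members included Grm5, a glutamate receptor, Nlgn2, a synaptic adhesion protein, Scnn1b, a sodium channel subunit, Il12rb2, a cytokine receptor subunit, and Rec8, the meiotic cohesin subunit; these 5 were chosen after their values were seen. Windows with 50% or more of their bases masked as repeats made up 8.14% of members, 1.59% of promoter peaks in all 4 lists and 22.5% of gained peaks away from promoters.

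**Figure D1:**
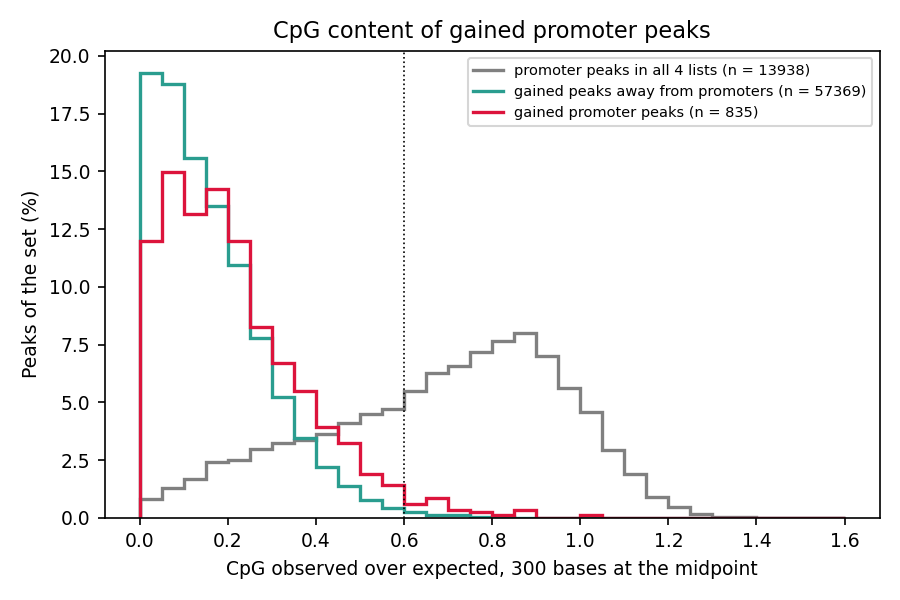
CpG observed over expected in the 300 bases at the peak midpoint (x axis) against the share of each set of peaks in percent (y axis), as outlines for 3 sets; the dotted line is at 0.6. Gained promoter peaks (median 0.182) lie with gained peaks away from promoters (median 0.138) and to the left of promoter peaks in all 4 lists (median 0.723).

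Strings of the reprogramming factors were found in a minority of members. SOX strings were in 20.4% of members (17.8 to 23.2%), 22.7% of gained peaks away from promoters, 5.8% of promoter peaks in all 4 lists and 7.17% of all start sites. The OCT string was in 2.4% of members, 2.82% of gained peaks away from promoters and 1.2% of all start sites. KLF strings were in 10.1% of members (8.2 to 12.3%), and the shares in the other 3 sets ran from 8.59 to 9.38%. Any of these strings was in 30.7% of members (27.6 to 33.9%), 32.4% of gained peaks away from promoters and 16.4% of all start sites. The AP-1 string TGAGTCA was in 9.46% of members, 11% of gained peaks away from promoters and 4.01% of all start sites. In the same order, the GATA-family string AGATAAG was in 5.15%, 3.87% and 2.23%, and CATTCCA (TEAD) in 4.79%, 5.77% and 3.16%. The GC box GGGCGGGG was in 3.71% of members and 20.1% of all start sites, CCGGAAGT (ETS) in 0.838% and 4.47%, TGACGTCA (CRE) in 0.24% and 1.89%, CACGTG (E-box) in 5.27% and 6.92%, and AACCGGTT (GRHL) in 0.12% and 0.155%. These are matches of letters on both strands. The sets also differ in base composition (median GC 48% in members and 58.33% at all start sites), and its part in these shares was not tested.

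Members lay less tightly on the start site than promoter peaks present throughout. The peak covered its nearest start in 465 of 835 members (55.7%), against 96.6% of promoter peaks in all 4 lists, and the median distance from midpoint to start was 361 bp against 184 bp. The members were also narrower, with a median width of 667 bp against 1494 bp, close to the 646 bp of gained peaks away from promoters. The midpoint was upstream in 454 members and downstream in 381. For 371 members a protein-coding transcript start within 1000 bp was also the 5′ end of its gene, and for 464 every such start was an alternative one. The nearest MEF peak was a median of 3482 bp away, within 200 bp for 11 members and over 10000 bp for 187.

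**Figure D2:**
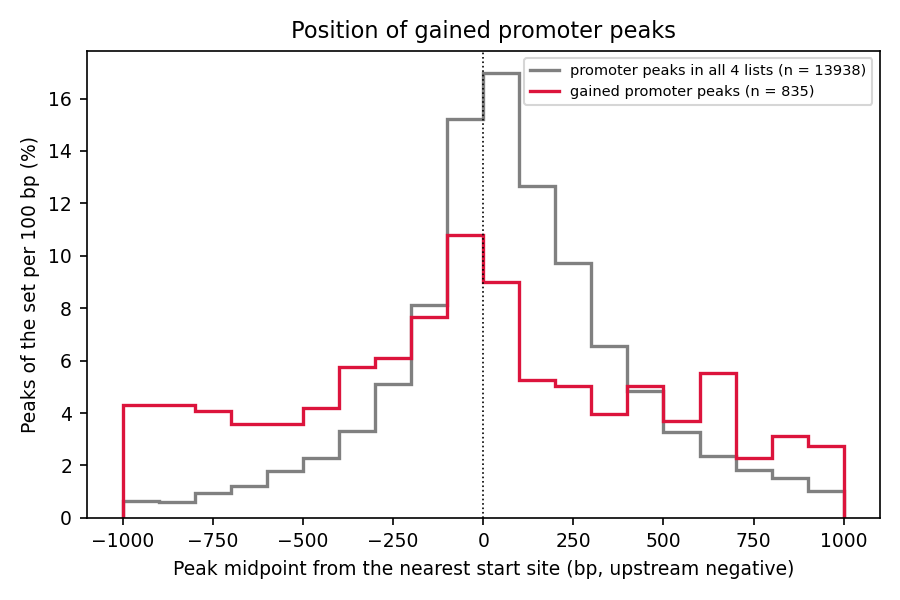
Distance from the nearest start site to the peak midpoint in bp, upstream negative (x axis), against the share of each set per 100 bp in percent (y axis). Gained promoter peaks spread over the whole window (333 of 835 within 250 bp of the start), and promoter peaks in all 4 lists gather at the start (61.2% within 250 bp).

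The members belonged to 827 genes, 3.79% of 21829 protein-coding genes. Of these genes 399 had no promoter peak in MEFs, which was 6.48% of the 6159 genes without one, and 428 already had another promoter peak in MEFs. Genes of the second kind had a median of 4 annotated start sites, against 2 over all genes, and the part of this in the count was not tested. The remaining genes were mostly open before reprogramming, with 15242 having a MEF promoter peak and no gained one.

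The most significant members belonged to genes of varied function. 4931408C20Rik had the largest -log10 q-value, 265.7, with a fold enrichment of 6.65 in Rep control and 6.60 in Rep KO, and the nearest MEF peak was 49344 bp away. Macf1, a cytoskeletal crosslinker, had a fold enrichment of 8.16 in Rep control and 7.93 in Rep KO at an alternative start. Erg, an ETS factor of endothelium, had 6.78 and 6.19 at an alternative start. Krt13, a keratin of stratified epithelium, had 6.64 and 6.42, with a MEF peak 304 bp away. Erg and Krt13 each had another promoter peak in MEFs. F2, which encodes prothrombin, had 5.57 and 5.37, and Fbp2, a gluconeogenic enzyme, had 4.55 and 4.47. The others of the top 12 were Sigirr, a regulator of interleukin signalling, Pik3c2g, a lipid kinase, Usp54, Tub, Zfp638 and 2310057N15Rik, and 5 of the 12 lay at the 5′ end of their gene. At the q-value limit, Olfr548-ps1, Nin and Dnajc11 lay just inside with -log10 q-values of 5.01, 5.01 and 5.02, and Usp20, Tcf4 and BC051019 just outside with 5.00, 4.99 and 4.96.

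Of 43 pluripotency genes, 2 were members, 4.65% beside 3.79% of all genes. A MEF promoter peak was present at 79.1% of the list, beside 71.8% of all genes, and 8 of the 43 had no promoter peak. Esrrb, an orphan nuclear receptor of naive pluripotency, gained a peak at an alternative start with a fold enrichment of 2.62 in Rep control and 2.74 in Rep KO. Lefty1, a Nodal antagonist, had 2.47 and 2.55, with the peak midpoint 858 bp upstream and the start not covered. Tet1, which oxidises methylcytosine, was the only member of 9 DNA methylation genes, with 2.90 and 2.77 at its 5′ end, in a window 91% masked as repeat. All 9 of these genes, Tet1 included, had a promoter peak in MEFs.

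The germline list held 5 members of 53 genes, all without a promoter peak in MEFs, against 19 open in MEFs and 24 with no promoter peak. They were 14.7% of the 34 genes of the list without a MEF promoter peak, beside 6.48% over all such genes, and no test was made of a list. The same share was 14.3% of 7 epithelial, 11.1% of 9 pluripotency and 0% of 9 TGF-β and BMP genes. In lists of other lineages it was 7.69% of 13 immune, 28.6% of 7 endoderm, 20% of 5 muscle, 50% of 2 neural and 0% of 3 endothelial markers. A share above 6.48% was therefore not particular to the germline list. All 5 germline peaks covered the start of the gene. Tex19.1, a germline gene also used in pluripotent cells, had a fold enrichment of 2.98 in Rep control and 2.91 in Rep KO. Rnf17, a Tudor protein of germ cells, had 3.22 and 3.43. Sycp2, part of the synaptonemal complex, had 2.52 and 2.19, and Rec8 had 2.40 and 2.03. Piwil2, a PIWI protein of the piRNA pathway, had 2.66 and 3.73. Among testis-expressed Tex genes there were 3 members of 38 (7.89%, beside 3.79% of all genes), Tex19.1, Tex35 and Tex46, the last with 6.69 and 6.55.

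Of 46 epithelial regulators, 2 were members, 4.35% beside 3.79% of all genes, and 84.8% had a MEF promoter peak, beside 71.8% of all genes. Esrp1, an epithelial splicing factor with no MEF promoter peak, had a fold enrichment of 5.88 and 6.12 at a peak 942 bp downstream of an alternative start. Of 53 keratins, 4 were members (7.55%), Krt13, Krt14 (2.90 and 2.79), Krt6a (2.47 and 2.77) and Krt6b (2.60 and 2.48), and 36 had no promoter peak. Krt13 was the only 1 of the 4 with another promoter peak in MEFs. No claudin of 33 was a member. Further families of the skin and of other tissues were picked after the members were seen, so their counts are only descriptive: 5 of 57 keratin-associated, 3 of 15 small proline-rich, 1 of 21 late cornified envelope, 4 of 26 kallikrein-related, 3 of 12 Spink and 3 of 9 desmosomal cadherin genes, 7 of 30 TRP channels, 4 of 20 axonemal dyneins, 10 of 50 myosins, 11 of 59 Arhgap and Arhgef genes, 5 of 208 type 1 and 1 of 120 type 2 vomeronasal receptors.

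**Figure D3:**
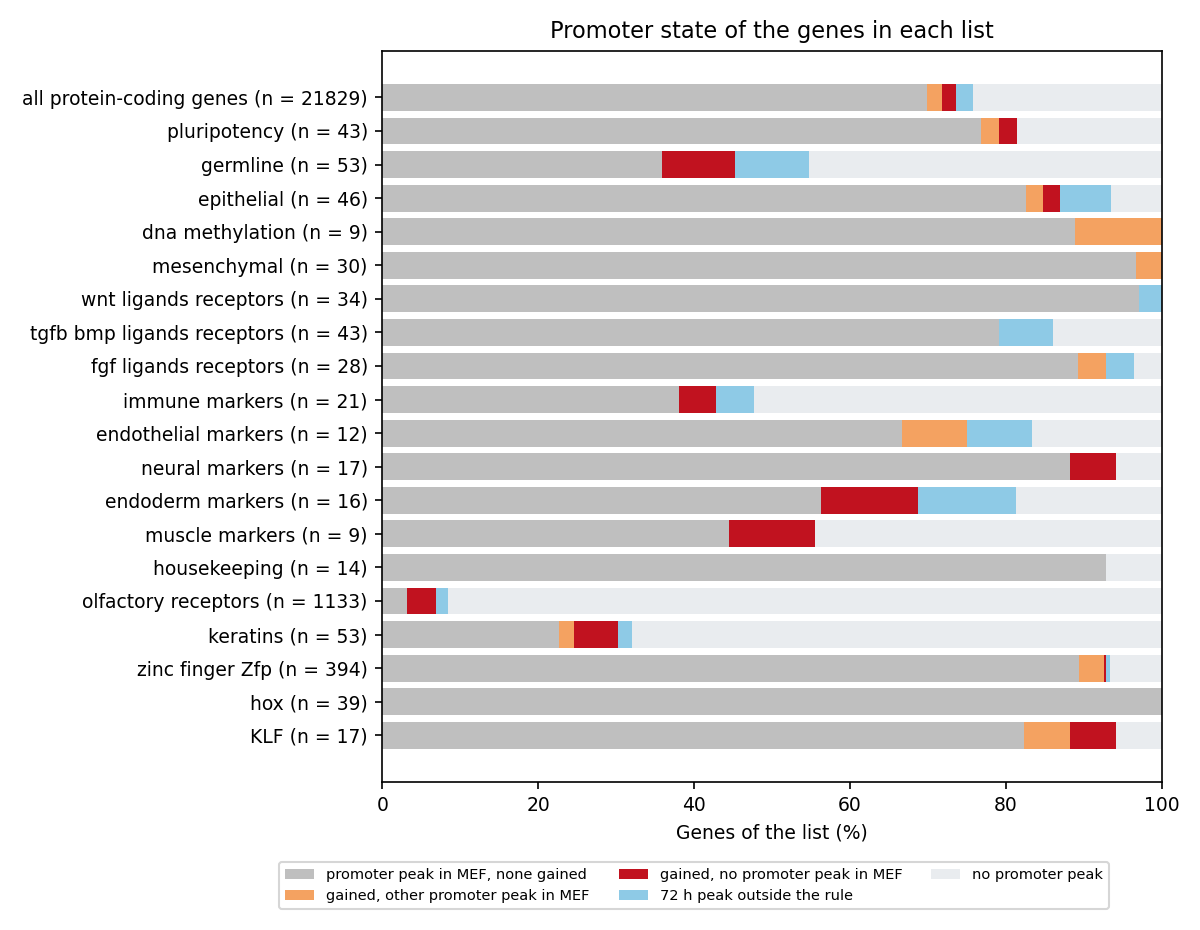
Share of the genes of each list in percent (x axis) by promoter state (colours), for lists on the y axis with the number of genes. Red and orange are genes with a gained promoter peak; they are 5 of 53 germline genes, 2 of 43 pluripotency genes and 43 of 1133 olfactory receptors, beside 827 of 21829 over all genes.

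Marker lists of 5 other lineages gave 6 members of 75 genes (8%), beside 3.79% of all genes, with 1 or 2 in each list. The members were Itgam of 21 immune markers (2.76 and 2.63), Erg of 12 endothelial markers, Dcx of 17 neural markers (4.40 and 4.00), Alb (2.71 and 2.12) and Hnf4a (4.61 and 5.12) of 16 endoderm markers, and Myog of 9 muscle markers (2.59 and 2.63). Of these 6 genes only Erg had another promoter peak in MEFs. Of 30 mesenchymal genes, 29 were open in MEFs with no gained peak, and Sparc gained a peak 758 bp upstream of its 5′ end with 4.35 and 4.50. Sparc also had another promoter peak in MEFs, and the MEF peak nearest the gained one was 3230 bp away. Among transcription factor families the members were Klf12 (3.12 and 2.92) and Klf17 (5.12 and 5.27) of 17 KLF genes, Sox6 of 19 SOX genes (3.03 and 3.19) and Foxi1 of 44 forkhead genes (3.10 and 2.51). Klf12 and Sox6 had another promoter peak in MEFs, and Klf17 and Foxi1 had none. Fgfr1 was the member of 28 FGF ligands and receptors, with another promoter peak in MEFs and a MEF peak 795 bp away. None of 34 WNT, 43 TGF-β and BMP, 39 Hox, 67 histone, 53 DEAD-box or 14 housekeeping genes was a member, and all 39 Hox genes had a MEF promoter peak.

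The 3 largest families by symbol gave members near the 3.79% of all genes. Olfactory receptors gave 43 genes of 1133 (3.8%), with 1037 having no promoter peak, and 42 of the 43 lacked a MEF promoter peak. Those 42 were 3.83% of the 1097 receptor genes without a MEF promoter peak, beside 6.48% over all such genes, and no test was made of the family. Their 44 peaks had fold enrichments of 2.11 to 7.66 in Rep control (Olfr94 lowest and Olfr50 highest) and lay a median of 59605.5 bp from the nearest MEF peak. Solute carriers gave 14 of 371 and Zfp zinc finger genes 14 of 394, 13 of which had another MEF promoter peak. The solute carriers were Slc15a4, Slc16a5, Slc16a7, Slc25a23, Slc25a36, Slc25a38, Slc29a1, Slc44a2, Slc44a4, Slc5a4a, Slc5a9, Slc6a7, Slc8a1 and Slc9b1, with fold enrichments of 2.33 to 5.04 in Rep control, highest at the sodium-calcium exchanger Slc8a1. The Zfp genes were Zfp106, Zfp207, Zfp27, Zfp362, Zfp423, Zfp568, Zfp609, Zfp638, Zfp658, Zfp683, Zfp707, Zfp74, Zfp950 and Zfp972, from 1.98 to 5.01. Protocadherins, which are adhesion proteins, gave 6 of 68 (Pcdh19, Pcdha3, Pcdha7, Pcdha8, Pcdha11 and Pcdhb20), from 2.44 to 3.42. The 6 members among 82 interleukins and their receptors were Il11, Il12rb2, Il18r1, Il1a, Il1f8 and Il5, from 1.97 to 4.87. The 5 among 100 cytochrome P450 genes were Cyp21a1, Cyp26b1, Cyp2b10, Cyp2w1 and Cyp3a13, of which Cyp2b10, a drug-inducible enzyme of liver, had 6.13 in Rep control and 6.31 in Rep KO. The 5 among 99 CD antigens were Cd177, Cd36, Cd3g, Cd5l and Cd7, from 2.03 to 4.20. The 9 among 242 Tmem genes were Tmem184b, Tmem190, Tmem238l, Tmem249, Tmem265, Tmem35b, Tmem45a, Tmem79 and Tmem88b, from 1.97 to 4.91. Smaller counts came from chemokines and their receptors (Ccl25, Ccl27a and Cxcr3 of 52), serpins (Serpinb5 and Serpinb6c of 61), potassium channels (Kcnj12 and Kcnj14 of 94), orphan GPCRs (Gpr142 and Gpr21 of 73), TNF receptors (Tnfrsf22 of 20), Rab genes (Rab3b of 69) and Trim genes (Trim42 of 68). Il11 and Tmem190 share 1 member. Olfactory and vomeronasal receptors lie among near-identical copies, so reads at these members may be placed uncertainly.

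Fold enrichment at members differed little between Rep KO and Rep control in the merged peak lists. The median log2 ratio of Rep KO over Rep control fold enrichment was -0.05 over 835 members, beside -0.04 in promoter peaks of all 4 lists and -0.04 in gained peaks away from promoters. The rule set a q-value limit in Rep control and none in Rep KO, where 89 members had a -log10 q-value under 5, so these ratios partly use the values that chose the members. With no q-value limit the median was -0.02. The 5 highest were 1700109H08Rik (1.93 in Rep control and 3.25 in Rep KO), Ash2l (4.23 and 6.89), Olfr548-ps1 (2.45 and 3.91), Bex6 (2.70 and 3.90) and the erythroid factor Gata1 (2.51 and 3.55). Among the lowest were Fgfr1 (3.63 and 2.43), Olfr539 (3.30 and 2.27), Cfap69 (5.08 and 3.58) and Olfr196 (4.44 and 3.15). Each list was made from pooled replicates, so these ratios have no replicate error.

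**Figure D4:**
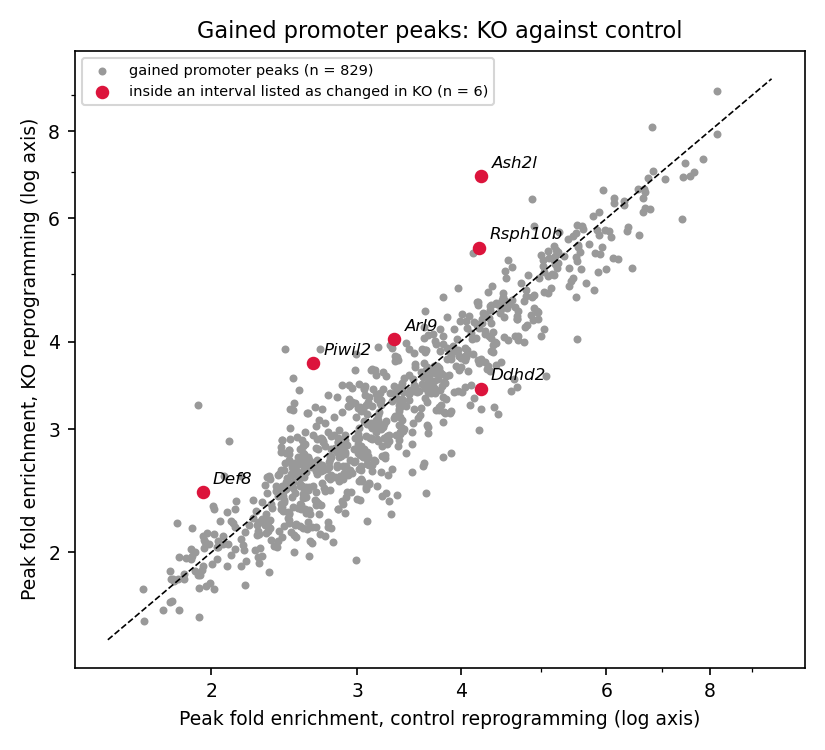
Peak fold enrichment in Rep control (x axis) and Rep KO (y axis), both log axes, 1 point per gained promoter peak; red points lie inside an interval listed as changed between KO and control, and the dashed line marks equal values. The points follow the line, with Ash2l at 4.23 and 6.89 and Fgfr1, unlabelled, at 3.63 and 2.43.

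Read counts per library were given only for intervals that had passed the study's own threshold between KO and control. Such intervals of reprogramming cells covered 6 members, and all 6 had more reads in KO. That is 0.719% of members, beside 0.557% of the 273256 merged intervals called in this direction and 0.588% in either, so the members' share was close to the background. The Arl9 interval (chr5:77005361-77006945, at an alternative start of a small GTPase gene) had normalised read counts of 133.0, 129.7 and 146.2 in Rep control and 334.8, 312.5 and 354.0 in Rep KO, a log2 change of 1.29 ± 0.10 (SE; edgeR quasi-likelihood adjusted p = 1.05e-28). When the listed intervals were centred by TMM it was 0.32 (edgeR adjusted p = 0.548). Of the listed intervals 1522 were higher and 86 lower in KO, so TMM takes out the rise that they share. Values under TMM are therefore changes relative to the other listed intervals. The Piwil2 interval (chr14:70428951-70430258, at the 5′ end of the gene) had 134.1, 119.8 and 154.0 in Rep control and 302.8, 287.9 and 314.4 in Rep KO, a log2 change of 1.16 ± 0.10 (edgeR adjusted p = 9.07e-23), which was 0.19 under TMM (edgeR adjusted p = 1). The groups did not overlap at either site, which held for 100% of the 1608 listed intervals, and the mean over the 6 MEF libraries was 16.6 at Arl9 and 17.9 at Piwil2.

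The other 4 sites also had every KO library above every control library, as did 94.7% of listed intervals. Ash2l, a subunit of histone H3K4 methyltransferase complexes (chr8:25847417-25847918, 5′ end), had 82.7, 78.9 and 78.3 in Rep control and 138.1, 182.1 and 211.2 in Rep KO, a log2 change of 1.10 ± 0.13 (edgeR adjusted p = 1.15e-12), and 0.13 under TMM (edgeR adjusted p = 1). The means at Def8 (chr8:123446639-123447408, alternative start) were 95.0 ± 10.2 and 203.6 ± 20.6 (SD, n = 3), a log2 change of 1.09 ± 0.12 (edgeR adjusted p = 1.9e-14), and 0.11 under TMM (edgeR adjusted p = 1). At Rsph10b, a radial spoke gene of motile cilia (chr5:143937282-143938124, alternative start), they were 116.7 ± 4.3 and 228.0 ± 3.8 (SD, n = 3), a log2 change of 0.96 ± 0.11 (edgeR adjusted p = 1.46e-13), which was -0.01 under TMM (edgeR adjusted p = 1). At Ddhd2, a phospholipase gene (chr8:25748253-25750326, alternative start), they were 152.9 ± 7.4 and 220.4 ± 4.5 (SD, n = 3), a log2 change of 0.52 ± 0.10 (edgeR adjusted p = 0.000209). Under TMM the Ddhd2 value was -0.45 (edgeR adjusted p = 0.0121), again relative to the other listed intervals. The Ddhd2 interval spanned 2074 bp and the member 528 bp of it, and the member's own fold enrichment was lower in KO (4.23 in Rep control and 3.43 in Rep KO). Because the intervals were listed for passing a test on these libraries, the repeated test is not independent of that choice. The spread behind each SE and p-value was estimated over the 1608 listed intervals alone, all of which were called, so these values describe the listed intervals and do not carry over to intervals outside the list.

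**Figure D5:**
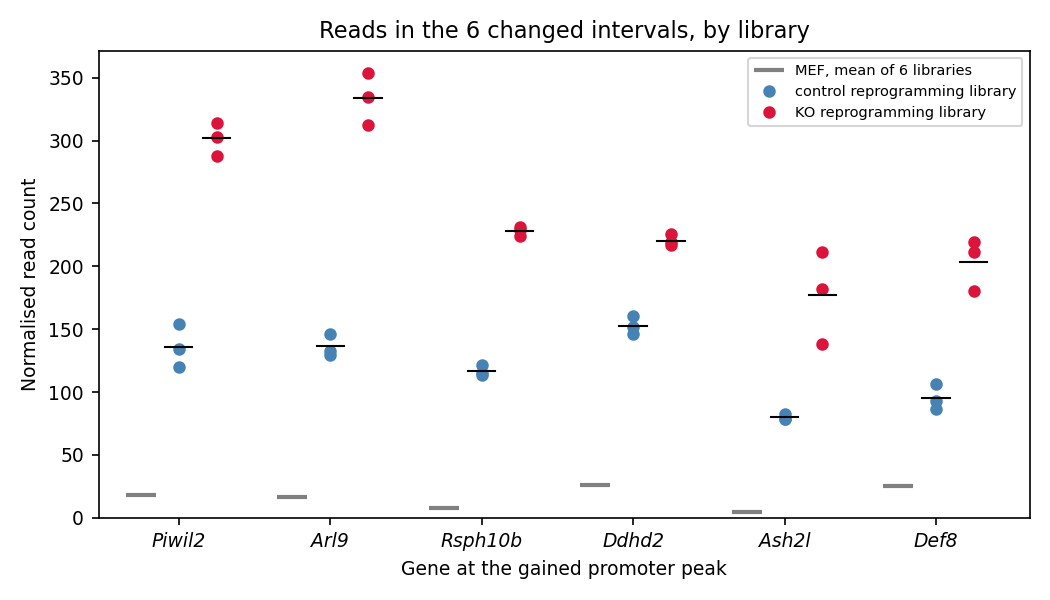
Normalised read count (y axis) in the 6 listed intervals that cover a gained promoter peak (x axis, by gene); points are single reprogramming libraries, black lines are means of 3, and grey dashes are means of 6 MEF libraries. In each interval the 3 KO points lie above the 3 control points, and the MEF means run from 4.3 to 26.5.

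In MEFs, 2 members lay in an interval listed for KO against control, although neither MEF list had a peak there. That is 0.24% of members, beside 0.176% of the 273256 merged intervals. At Tmem79 the normalised read counts were 33.1, 37.6 and 25.8 in MEF control and 60.6, 56.9 and 47.5 in MEF KO. At Jsrp1 they were 25.2, 19.2 and 30.6 in MEF control and 47.5, 54.2 and 60.6 in MEF KO. The KO libraries were all above the control libraries at both sites, as they were in 99.8% of the 480 listed MEF intervals, and the Rep control and Rep KO fold enrichments there differed little (3.69 and 3.62 at Tmem79, 2.86 and 2.83 at Jsrp1).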

How the data were processed

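Omni-ATAC-seq was analysed in 12 libraries, 3 per group. The authors removed adapters, aligned reads to GRCm38 with BWA, dropped duplicates and reads that were mitochondrial, blacklisted or not properly paired, and used MACS2 for broad peak calls, with 1 merged list per group. The deposited peak lists hold a fold enrichment, a ratio over background, and a -log10 q-value. The deposited tables hold raw read counts and a normalised signal, the counts divided by a DESeq2 size factor, at intervals that passed the authors' threshold only. Their fold changes and p-values were not used. The total depth of each library was not analysed here; size factors recovered from the tables ran from 0.6299 to 1.1023 in reprogramming libraries, with 141616 to 324141 reads in 1608 listed intervals.

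Start sites were those of protein-coding transcripts. Sequence features came from GRCm38.p6, whose chromosome lengths no peak exceeded. KO was compared with control by edgeR 4.0.16 (R 4.3.3) on raw counts with recovered size factors, with Benjamini-Hochberg adjustment over 273256 merged intervals at 0.05. SE was taken from the log2 change and its F value. The step was tested on simulated data. The MEF mean was obtained by subtraction from the mean over 12 libraries. Named genes were the 12 with the largest -log10 q-values, members of the gene lists, members in listed intervals, the 3 on each side of the q-value limit, and the 5 highest and 5 lowest KO over control ratios; 2 of the genes so named are not reported here. The members, lists, strings and printed windows were chosen with earlier results of these data known. Alternatives were DESeq2 1.42.0, other scalings and filters, a replicate block, left-out libraries and other limits of the rule.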

Additional observations from a re-analysis of the deposited data

How the results depend on the processing

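The number of gained promoter peaks (835) and of their genes (827) depended on the limits of the rule: 1283 peaks and 1258 genes with no q-value limit, 524 and 522 with starts within 500 bp, 1837 and 1785 within 2000 bp, and 411 and 419 at gene 5′ ends only. The gene 5′ ends of that last setting need not be starts of protein-coding transcripts, so its 411 peaks are not the 371 members described above. A q-value limit of 10 gave 559 and 558, reciprocal overlap of 50% gave 768 and 763, and no MEF peak within 1000 bp gave 719 and 714. The median log2 KO over control ratio was -0.0156 with no q-value limit and -0.0587 at gene 5′ ends only, and the CpG-rich share was 1.14% within 2000 bp, 1.56% over whole peaks, 3.44% within 500 bp and 3.65% at gene 5′ ends only, beside 2.4%. The 6 calls for the KO became 0 with no scaling and 1 with TMM over the listed intervals, of which 1522 were higher and 86 lower in KO, so that TMM centres on changed intervals. With no scaling the log2 changes stayed positive, from 0.397 at Ddhd2 to 1.172 at Arl9, with SEs of 0.311 to 0.315. Under TMM the log2 change was -0.45 at Ddhd2, the 1 call, and -0.011 at Rsph10b. DESeq2, filterByExpr and the half-covered limit each gave 6 calls. Leaving out each library gave 6 to 6 calls. With the replicate block there were again 6 calls. Same-numbered libraries had deviations correlated at 0.04, 0.10 and 0.08, each the highest for its library. Differently numbered libraries ran from -0.084 to 0.005. All of these correlations were weak, and whether same-numbered libraries were paired was not tested. Peak lists had no replicates, and counts at members outside the listed intervals were not analysed here.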
